A study of Oryza sativa Japonica Group with 22 samples.

Results

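The question addressed here was whether the response of developing rice seeds to the seed storage transgene HaSSA changed when the methionine synthesis transgene AtD-CGS was also present. The measure was the interaction of the transgenes, that is, the HaSSA effect with AtD-CGS (CGS × SSA minus CGS) minus the HaSSA effect without it (SSA minus Taipei), on the log2 scale and for every gene. A value of 0 means that the effects of the transgenes add up. The contrast used 16 of the 22 libraries of the series, and 26821 of the 38866 genes in the files had enough reads to be tested. The remaining libraries, of the EcSAT lines, were used to see which changes all transgenic lines shared.

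All lines were rice of the Taipei background, and seeds were collected 10 days after flowering, at the milkripe stage. Taipei (n = 4 libraries) was the parent without a transgene. SSA (n = 3) carries HaSSA, a sunflower albumin rich in methionine and cysteine with a KDEL signal that retains it in the endoplasmic reticulum (ER), under a wheat glutenin promoter active in seeds. CGS (n = 5) carries AtD-CGS, an Arabidopsis cystathionine γ-synthase freed of feedback control, under the maize ubiquitin promoter, and CGS × SSA (n = 4) carries both. SAT (n = 3) and SAT × SSA (n = 3) carry EcSAT, a serine acetyltransferase from Escherichia coli under the same ubiquitin promoter, without and with HaSSA. SSA, CGS and SAT were each 1 transformed line, so the effect of a transgene and that of its line cannot be told apart. The double transgenic lines came from crosses with SSA as pollen donor, and the data of 2 segregants per cross were combined. The labels do not say to which segregant a library belongs.

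Cystathionine γ-synthase commits carbon to methionine and so pushes sulfur into that amino acid, while a sulfur-rich storage protein pulls methionine and cysteine into an end product. A foreign protein held in the ER also occupies the chaperones and disulfide isomerases that fold storage proteins, whose genes respond to folding load. Plants short of sulfur raise sulfate transporters, enzymes of sulfate reduction and a small group of genes, the O-acetylserine (OAS) cluster, that follow the cysteine precursor OAS. In cereal endosperm, both systems serve the filling of protein bodies.

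Total gene counts of the 16 libraries ran from 29642300 to 37439800. The 9 markers of endosperm summed to 98744 to 133292 CPM (counts scaled to the same library total) in Taipei and 82308 to 112742 CPM in CGS, and none was at 0 throughout. Unmapped reads, a class that includes those of transgenes, made up 4.81%, 7.47%, 7.55% and 8.07% of all reads in CGS × SSA replicates 1 to 4 and 5.55% to 6.90% in SSA. The mean difference between these lines was 0.718 percentage points (exact permutation test, 2-sided, p = 0.486). In CGS they were 0.671% to 0.760% and in Taipei 0.630% to 0.726%, with p = 0.270 in the same exact permutation test. The smallest p these designs allow is 0.0286 and 0.00794.

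One library stood apart among those that carry both transgenes. In CGS × SSA replicate 1, 12 of 13 sulfur genes that rose in SSA had their lowest level of the 4 CGS × SSA libraries, and 10 of the 13 were at less than 0.5 times the mean of the other libraries (median ratio 0.361). Of the 12 ER folding genes that rose in SSA, 11 were also lowest there, but at a median ratio of 0.813 and in no case under 0.5. SDI1 Os03g0165900, an ortholog of a sulfur deficiency induced gene of Arabidopsis, was at 20.7 CPM in that library and at 213 to 282 CPM in the other 3. BiP4 Os05g0428600, an ER chaperone of the Hsp70 family, was at 100.3 CPM against 150 to 158 CPM. At 6 of the 13 sulfur genes, replicate 1 lay within the range of CGS, which has no HaSSA, and at none of the 12 ER folding genes. For the genes at which it lay far below the others, the interaction is also given without it.

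ER folding genes rose with HaSSA in both backgrounds, and no interaction was called. Of the 24 chaperones, co-chaperones and disulfide isomerases that the study lists, 12 rose in SSA over Taipei and 13 in CGS × SSA over CGS, and all 12 of the first were among the 13 (edgeR quasi-likelihood test, adjusted p below 0.01). In these comparisons, 1.83% and 1.82% of all genes tested were called higher. For the interaction the list had 0 calls among 24 genes, where 0.38% of all genes tested were called. The list had 3 estimates with an unadjusted p below 0.05, as 15.2% of all genes tested had. Its median was -0.11 and 18 estimates were below 0, against a median of -0.01 over all genes. The study chose these genes on the same libraries, so the list is a description.

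BiP1 Os02g0115900, the main Hsp70 chaperone of the ER, had 649, 359, 497 and 465 CPM in Taipei and 2754, 2286 and 3639 CPM in SSA. With AtD-CGS it had 575, 878, 625, 875 and 605 CPM in CGS and 1786, 2084, 3082 and 2375 CPM in CGS × SSA. BiP1 was higher in every library with HaSSA than in any without it. The HaSSA effect was 2.56 on the log2 scale without AtD-CGS and 1.71 with it, and the interaction was -0.84 (standard error 0.31, adjusted p = 0.194), with a 95% interval from -1.49 to -0.20. NEF Os09g0512700, a nucleotide exchange factor of Hsp70 chaperones, had effects of 3.99 and 3.27 and an interaction of -0.72 (adjusted p = 0.193). BiP4 rose by 7.79 and 7.20, and its interaction of -0.59 had an interval from -1.86 to 0.69.

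Intervals were narrower at several other folding genes. For the Hsp90-type chaperone GRP94 Os06g0716700, the HaSSA effects were 1.60 and 1.43, and the interval of the interaction ran from -0.44 to 0.09. The lectin chaperone calnexin (CNX Os04g0402100) had effects of 1.18 and 1.13, and its interval ran from -0.28 to 0.19. CRT Os07g0246200, a calreticulin, had an estimate above 0, at 0.18 (interval -0.05 to 0.41). Among the disulfide isomerases, PDIL2-3 Os09g0451500 had effects of 2.31 and 2.07 and an interval from -0.56 to 0.10, and PDIL1-1 Os11g0199200 one from -1.24 to 0.28. ERO1 Os03g0733800, the oxidase that recharges these enzymes, had an interaction of -0.38 (interval -0.87 to 0.11). DjB6 Os05g0156500, a J-domain co-chaperone, had -0.44 (interval -0.82 to -0.05, adjusted p = 0.259). A HaSSA effect higher with AtD-CGS by 1 on the log2 scale lay outside the intervals of all 10 genes of this paragraph and the one before. One lower by 1 lay inside those of BiP1, BiP4, NEF and PDIL1-1 and outside the others. Another calreticulin, CRT Os03g0832200, was called higher only in CGS × SSA over CGS, with effects of 1.39 and 1.84. Its interaction of 0.44 had an interval from -0.58 to 1.46, so there a HaSSA effect higher by 1 lay inside.

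**Figure D1:**
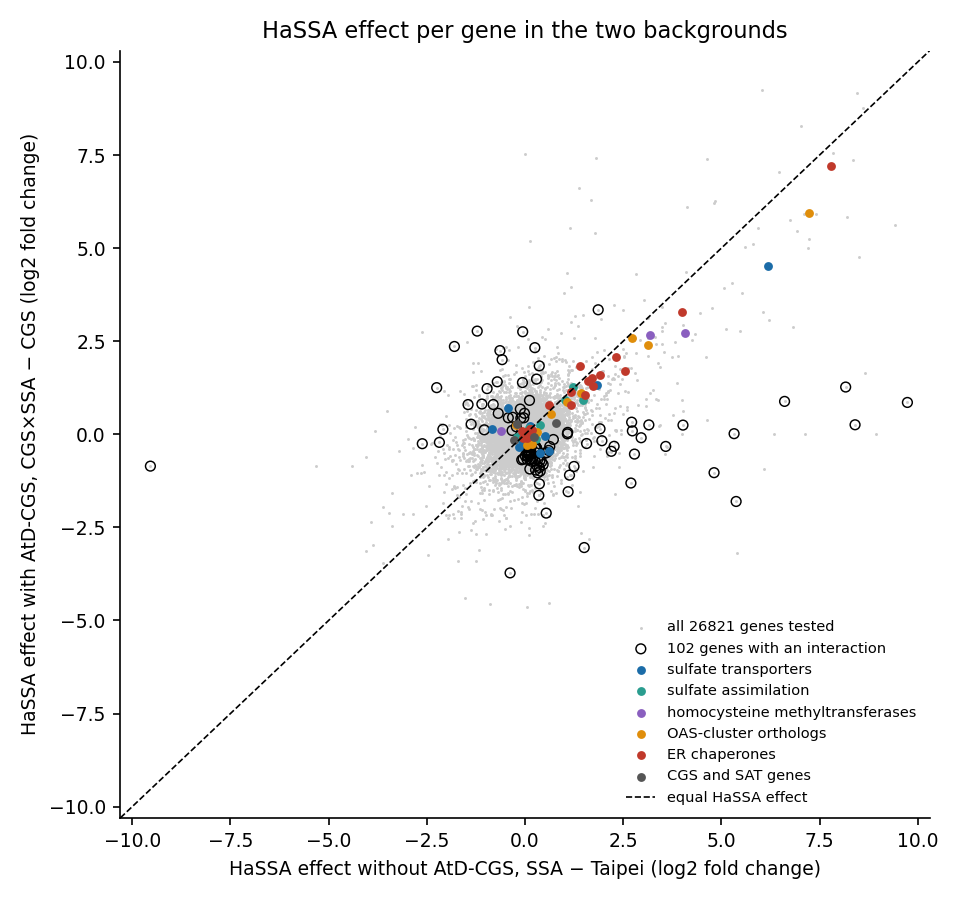
HaSSA effect of each gene without AtD-CGS (x axis) and with it (y axis), both as log2 fold changes, for 26821 genes; no library enters both axes. Coloured points are the genes the study lists, circles the 102 genes with an interaction at adjusted p below 0.01, and the dashed line marks an interaction of 0. Most listed genes with large effects lie along the line or below it, by as much as 1.67 at SULTR1;1, and no listed gene is circled.

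The genes of sulfur uptake and assimilation likewise gave no interaction call. Of 13 sulfate transporters, SULTR1;1 and SULTR4;1 rose with HaSSA in both backgrounds, where 1.83% and 1.82% of all genes tested rose. SULTR4;1 Os09g0240500, whose Arabidopsis relatives release sulfate from the vacuole, had 30.7, 24.2, 23.9 and 24.9 CPM in Taipei, 92.6, 67.9 and 114.6 CPM in SSA, 27.3, 33.7, 32.2, 34.4 and 28.1 CPM in CGS and 33.3, 87.3, 95.1 and 93.6 CPM in CGS × SSA. CGS × SSA thus overlapped CGS only at replicate 1. The interaction was -0.51 (interval -1.20 to 0.18, adjusted p = 0.488) and -0.26 without that library. SULTR1;1 Os03g0195800, a high-affinity transporter, rose by 6.18 without and 4.51 with AtD-CGS, and its interaction of -1.67 (interval -3.85 to 0.51) was -1.30 without CGS × SSA replicate 1. It was at 0.781 CPM in that library and at 6.86 to 10.0 CPM in the others.

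Of the enzymes that reduce sulfate and build cysteine, ATPS Os03g0743900, ATP sulfurylase, had HaSSA effects of 1.03 and 0.92 and an interaction of -0.10 (interval -0.65 to 0.44). APRL1 Os07g0509800, as the study names it, had 0.04 (interval -0.76 to 0.83), a sign that turned in some of the alternative fits. OASTL Os12g0625000, an O-acetylserine thiol lyase, had effects of 1.49 and 0.93 and an interaction of -0.56 (adjusted p = 0.304), or -0.37 without CGS × SSA replicate 1. Of the methyltransferases that turn homocysteine into methionine, HMT1 Os03g0221200 rose by 4.07 and 2.71 and HMT3 Os10g0422200 by 3.19 and 2.68. The HMT1 interaction was -1.36 (interval -2.71 to -0.01, adjusted p = 0.325). Replicate 1 of CGS × SSA was at 6.80 CPM where the other 3 had 40.6 to 57.0 CPM, and without it the HMT1 interaction was -1.005. The HMT3 interaction was -0.51, and -0.16 without that library. Over the list of 11 assimilation genes the median interaction was -0.04, and over the 4 methyltransferases -0.38, with 0 calls in either.

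Of the OAS-cluster orthologs, SDI1 had the largest HaSSA effects among the listed sulfur genes, in both backgrounds. It had 4.03, 0.734, 1.40 and 2.28 CPM in Taipei, 337, 184 and 417 CPM in SSA, 3.10, 3.77, 1.26, 5.73 and 2.49 CPM in CGS and 20.7, 213, 277 and 282 CPM in CGS × SSA. Every library of SSA and CGS × SSA was above every library of Taipei and CGS, while SAT × SSA, at 0.25 to 0.543 CPM, was not. Its effects of 7.22 and 5.93 left an interaction of -1.29 (interval -3.18 to 0.61), or -0.91 without CGS × SSA replicate 1. LSU2 Os02g0129800, of a family induced by low sulfur in Arabidopsis, had effects of 2.71 and 2.57 and an interaction of -0.14 (interval -1.28 to 1.00), and 0.17 without CGS × SSA replicate 1. SHM4 Os01g0874900, a serine hydroxymethyltransferase, had 1.08 and 0.88, and its interaction of -0.20 became 0.01 without that library. The list of 14 tested orthologs had a median of -0.18 with 12 estimates below 0, or -0.09 without that library, and 0 calls.

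Over the 25 listed genes that rose in SSA, median interactions were -0.35 at the 12 ER folding genes and -0.51 at the 13 sulfur genes, and -0.28 and -0.27 without CGS × SSA replicate 1. Since the genes were chosen for a high value in SSA, which enters the interaction with a minus sign, a median below 0 is no result. In all, the interaction was called at 0 of the 67 listed genes that could be tested, with or without CGS × SSA replicate 1. With all libraries, 0.38% of all genes tested were called, so 0 of 67 is near that share. It is no result about these genes, and a missing call does not show equal HaSSA effects. DESeq2 likewise called 0 of the 67, with a lowest adjusted p of 0.0113. At an unadjusted p below 0.05 in edgeR there were 13 estimates below 0 and 2 above 0. Of all 26821 genes tested, 15.2% had such a p, 2202 of them below 0 and 1877 above 0. Of the rice genes that share the function of the transgenes, CGS Os03g0376100 had -0.29 (adjusted p = 0.521). The serine acetyltransferase SAT Os05g0533500 rose by 0.78 in SSA over Taipei and had an estimate of 0.32 (adjusted p = 0.167) in CGS × SSA over CGS. The difference between these was -0.47 (adjusted p = 0.296).

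**Figure D2:**
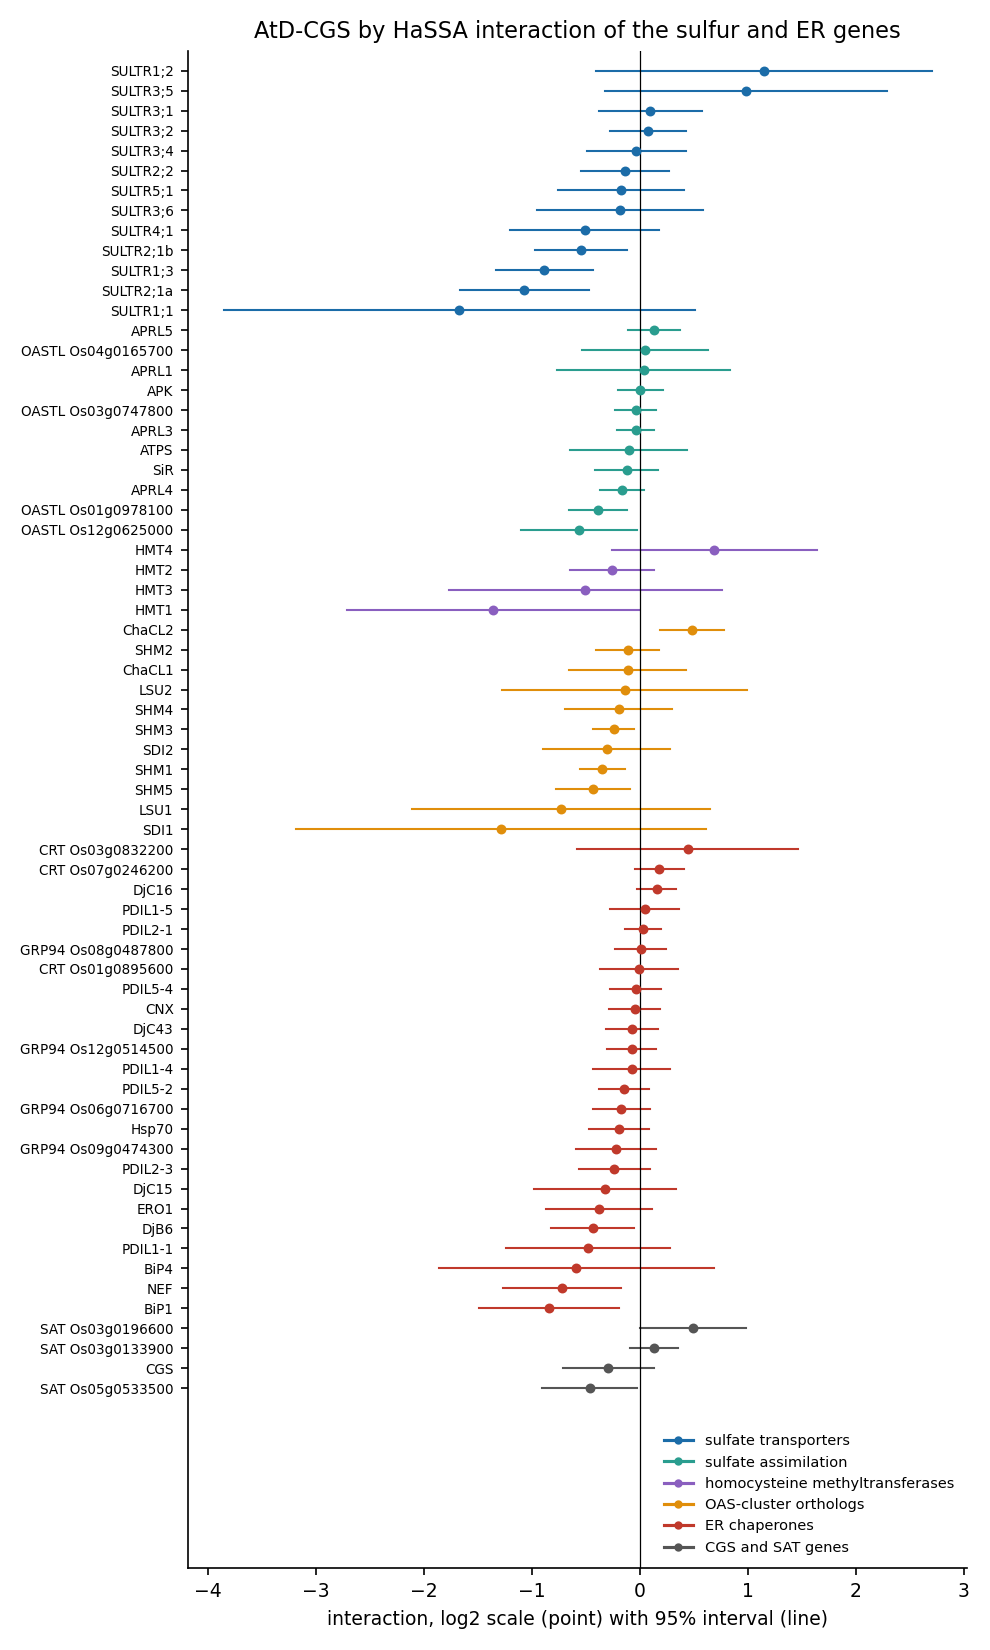
Interaction of the 67 listed sulfur and ER genes on the log2 scale (points) with 95% intervals (lines), coloured by list. Most points lie within 1 unit of 0, the widest intervals belong to genes of low level in lines without HaSSA such as SULTR1;1 and SDI1, and none passed adjusted p below 0.01.

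The 5 listed genes with the lowest p-values for the interaction, SULTR1;3, SULTR2;1a, SHM1, ChaCL2 and OASTL Os01g0978100, were not called higher with HaSSA in either background. SULTR1;3 Os08g0406400, a high-affinity sulfate transporter, had 6.46, 6.88, 6.75 and 6.99 CPM in Taipei, 7.70, 8.41 and 10.3 CPM in SSA, 7.18, 12.6, 8.22, 11.5 and 9.71 CPM in CGS and 5.49, 6.77, 7.41 and 8.12 CPM in CGS × SSA. Both lines with 1 transgene lay above Taipei in every library, and CGS × SSA overlapped all of them. Its interaction was -0.88 (standard error 0.215, adjusted p = 0.0431), and SULTR2;1a Os03g0195450 followed with -1.07 (adjusted p = 0.0672). SHM1 Os03g0738400 rose by 0.37 in CGS over Taipei (adjusted p = 0.0012) and fell by 0.29 in CGS × SSA over CGS (adjusted p = 0.00774), while the interaction of -0.35 did not pass (adjusted p = 0.0888). ChaCL2 Os04g0448600, related to enzymes that break down glutathione, had 0.49 (adjusted p = 0.0964). OASTL Os01g0978100 rose by 0.41 in CGS (adjusted p = 0.00441), with an interaction of -0.39 (adjusted p = 0.144). NEF and BiP1, given above, came next. SHM3 Os12g0409000 rose by 0.31 in SSA and had an estimate of 0.06 with AtD-CGS, and its interaction was -0.24 (adjusted p = 0.21).

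HaSSA effects with AtD-CGS and with EcSAT share no library, and the difference between them was tested in the same fit. Of the 67 listed genes, 1 passed: LSU2 had an effect of 2.57 with AtD-CGS and -1.14 with EcSAT, a difference of 3.72 (standard error 0.651, adjusted p = 0.00353), where 1.21% of all genes tested passed. For SULTR4;1 the effects were 1.31 and -0.30, and their difference of 1.61 had an adjusted p of 0.0126. Of the other OAS-cluster orthologs, SDI1 (6.35), LSU1 (3.47), APRL1 (1.69), SDI2 (1.38), SHM4 (1.02) and ChaCL1 (0.98) had adjusted p from 0.0136 to 0.049. Differences at APRL3 (0.12) and ChaCL2 (0.32) were smaller. Those at SHM1, SHM2, SHM3, SHM5 and APRL4 were below 0 (lowest adjusted p = 0.0533). The interaction of EcSAT with HaSSA, which shares the libraries of SSA and Taipei with that of AtD-CGS, was called for LSU2 (-3.86) and SULTR4;1 (-2.12) and for 0.25% of all genes tested. For BiP1 the HaSSA effects with AtD-CGS and EcSAT were 1.71 and 1.68 (difference 0.03, adjusted p = 0.967), and for PDIL2-3 2.07 and 1.92 (difference 0.15, adjusted p = 0.658).

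To follow the HaSSA response beyond the listed genes, genes were chosen in the EcSAT background, where SAT × SSA and SAT share no library with the AtD-CGS interaction. There, 427 genes were higher with HaSSA (1.59% of genes tested). They had a median HaSSA effect of 0.26 without AtD-CGS and 0.20 with it, and a median interaction of -0.08, against -0.01 over all genes. The 713 genes that were lower (2.66%) had medians of -0.26 without AtD-CGS and -0.06 with it. Their median interaction was 0.21, and 79.0% of them lay above 0, against 48.5% of all genes. Between replicate libraries of a line, the median level of a set had an SD of 0.144 for the lower genes. For the higher genes this SD was 0.077. Neither median interaction was tested against this spread. Among the 246 that were lower by at least 1 on the log2 scale with EcSAT, the medians were -0.49 and 0.00 and the median interaction 0.50. At single genes the interaction was called for 7 of the 427 (1.64%) and 2 of the 713 (0.281%), against 0.38% of all genes tested. Across genes, which are not independent replicates, Pearson's r between the HaSSA effects without and with AtD-CGS was 0.70 in the higher set and 0.30 in the lower set.

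Of the storage protein genes, globulins and RA albumins fell in SSA, and their HaSSA effects had a median of -2.24 without AtD-CGS and -0.84 with it. For prolamins these medians were -1.87 and -2.04, and for glutelins -0.36 and -0.30. The 10 tested prolamins did not move together. In SSA over Taipei 5 were called lower and 2 higher, as 0.63% and 1.83% of all genes tested were. Their interactions ran from -3.67 to 1.67, with 6 above 0 and 4 below. Sums over the prolamin and glutelin lists, which weigh abundant genes most, were lower in SSA than in CGS × SSA without overlap. Prolamins summed to 4129 to 7860 CPM in SSA and 9945 to 15042 CPM in CGS × SSA. In SAT × SSA they lay higher, at 19520 to 30972 CPM. Glutelins summed to 54310 to 73699 CPM in SSA and 75547 to 101790 CPM in CGS × SSA. In SAT × SSA they summed to 60393 to 84553 CPM, which overlapped both. The lists in this paragraph and the next were written from general knowledge of rice, with no annotation to check them, and are described only as lists. Of the 14 prolamin identifiers, 12 were among the counted genes. The 7 globulin and RA albumin genes summed to 31671 to 47440 CPM in Taipei, 3878 to 13020 CPM in SSA, 24032 to 40734 CPM in CGS and 12835 to 22107 CPM in CGS × SSA. The HaSSA lines lay below those without HaSSA in each background, and SSA and CGS × SSA overlapped. Of these genes 6 fell in SSA over Taipei and 2 in CGS × SSA over CGS, where 0.63% and 2.05% of all genes tested were called lower. All 7 interactions were above 0, with a median of 1.47, but none passed (lowest adjusted p = 0.138). The median was 1.02 without SSA replicate 3, the library with the lowest sum. In SAT × SSA the same genes summed to 14860 to 18681 CPM. The 9 endosperm markers, which include storage protein genes, moved with them. Sums of these markers were 21844 to 39699 CPM in SSA, 41811 to 56322 CPM in CGS × SSA and 46670 to 65437 CPM in SAT × SSA. The part of these markers in the result was not tested. The 17 genes of starch synthesis had 16 estimates above 0 with a median of 0.28 (0.18 without SSA replicate 3), the 10 tested prolamins a median of 0.36 and the 13 glutelins 0.09, with 0 calls in each. DESeq2 called 1 of the starch genes, above 0, and none of the others.

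Of the markers of other seed tissues, those of green pericarp moved with the CGS line. The 8 markers of green pericarp summed to 4603 to 5076 CPM in Taipei, 5301 to 5563 CPM in SSA, 5972 to 6982 CPM in CGS and 5078 to 5745 CPM in CGS × SSA, and none was at 0. CGS lay above all libraries of the other 5 lines. Of the 8 genes, 5 rose in CGS over Taipei, where 2.34% of all genes tested were called higher, and 1 fell in CGS × SSA over CGS. All 8 interactions were below 0, with a median of -0.38 and 0 calls (lowest adjusted p = 0.0191), or 1 call with DESeq2. The 6 markers of embryo and aleurone had interactions above 0 throughout, with a median of 0.50, but 0 of them were called in CGS over Taipei. They summed to 2964 to 4176 CPM in Taipei, 2441 to 3489 CPM in SSA, 2070 to 3810 CPM in CGS and 2661 to 4112 CPM in CGS × SSA, and these ranges overlapped. Fewer cells of a tissue and less RNA per cell cannot be told apart in such seeds, and the part of tissue makeup in the interactions was not tested.

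**Figure D3:**
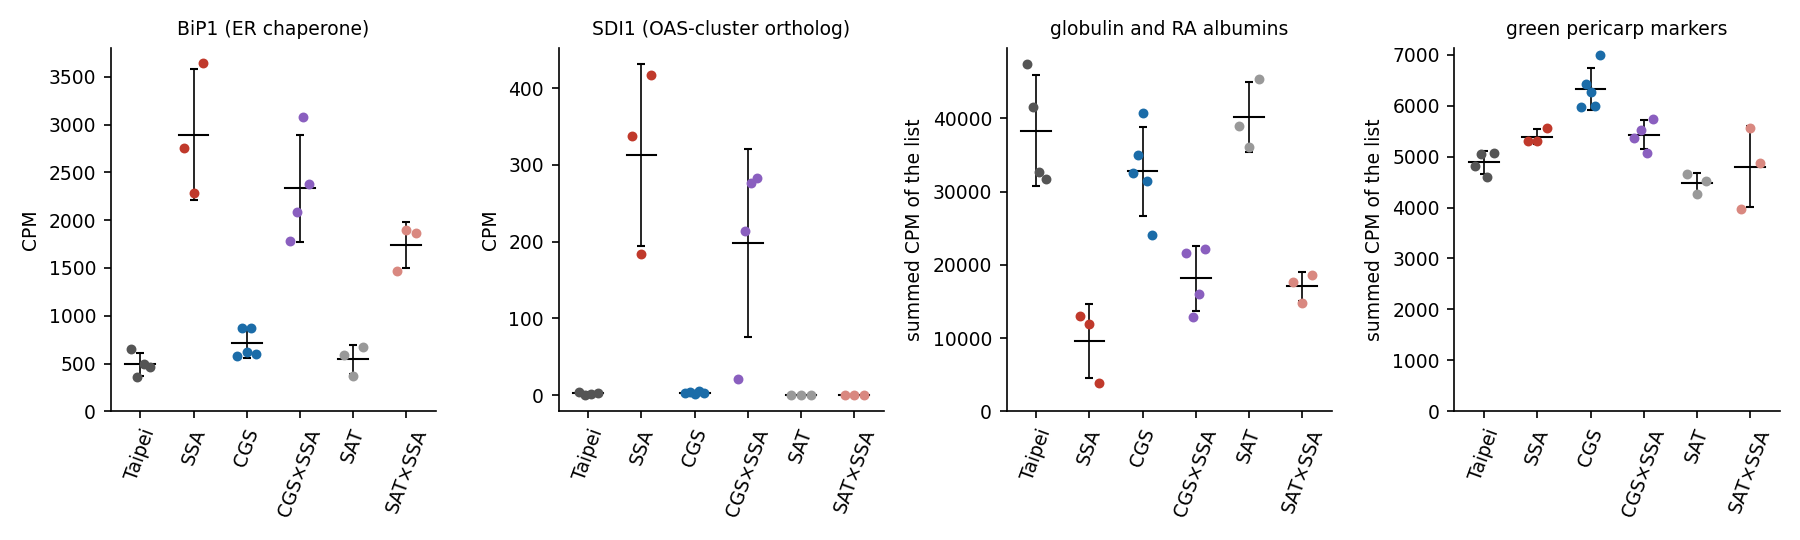
Level in each library (points) of BiP1 and SDI1 in CPM, and summed CPM of the globulin and RA albumin list and of the green pericarp markers; bars show the mean and SD of each line. BiP1 and SDI1 are high in lines with HaSSA, except SDI1 in SAT × SSA and in 1 library of CGS × SSA, the globulins are low there, and the green markers are highest in the 5 libraries of CGS.

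The interaction is also the effect of AtD-CGS with HaSSA minus that without it. Without HaSSA (CGS minus Taipei), 991 genes were called, 3.69% of those tested, and with HaSSA (CGS × SSA minus SSA) 30, or 0.112%. Of these, 5 were called in the same direction in both, which is 0.505% of the first set and 16.7% of the second, and none of the 5 had an interaction at adjusted p below 0.01. The 627 genes higher in CGS (2.34%) had a median of 0.56 over Taipei and 0.02 in CGS × SSA over SSA, and the 364 lower genes (1.36%) had -0.64 and -0.07. The genes were chosen on the first of each pair of values, which raises it. The comparison with HaSSA rests on 4 and 3 libraries and that without on 5 and 4, and a count does not show that the effects differed.

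At single genes, the interaction was called for 102 of 26821 genes (0.38%), 32 above 0 (0.119%) and 70 below 0 (0.261%). Scaling to total counts alone put the median of all genes at -0.12 and gave 20 calls above and 80 below 0. List medians given here are on the TMM scale, where that of all genes is -0.01. None of the 102 changed direction under any alternative fit that tested it. The number of calls ran from 46 without SSA replicate 3 to 122 without CGS replicate 3. It fell by over 1.5 times without Taipei replicate 1, 3 or 4 (64, 65 and 67 calls), SSA replicate 1 or 3 (66 and 46), CGS replicate 4 (63) or CGS × SSA replicate 1 or 4 (62 and 60). Of the 102 genes, 40 were called whichever of the 16 libraries was left out.

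An interaction can arise in several ways, and each called gene was assigned to the nearest of 5 patterns of SSA, CGS and CGS × SSA against Taipei. If all 3 lines are shifted from Taipei by the same amount, the arithmetic of the contrast yields an interaction of that size with the opposite sign, although no line carrying both transgenes differs from its parents. If 1 line or both lines with 1 transgene are shifted and CGS × SSA is back at the level of Taipei, the sum of the effects fails because the double transgenic line does not show what its parents show. Only where CGS × SSA is shifted alone is the change particular to the combination. By this rule 39 genes were nearest to a shift of CGS only, 28 to one of both lines with 1 transgene, 21 to the shared shift, 9 to one of SSA only and 5 to one of CGS × SSA only. For 15 genes the next pattern was within 0.1 of the nearest in distance. Patterns were assigned on the same libraries that called the genes. How far a line stands apart within its own pattern is therefore a description only.

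**Figure D4:**
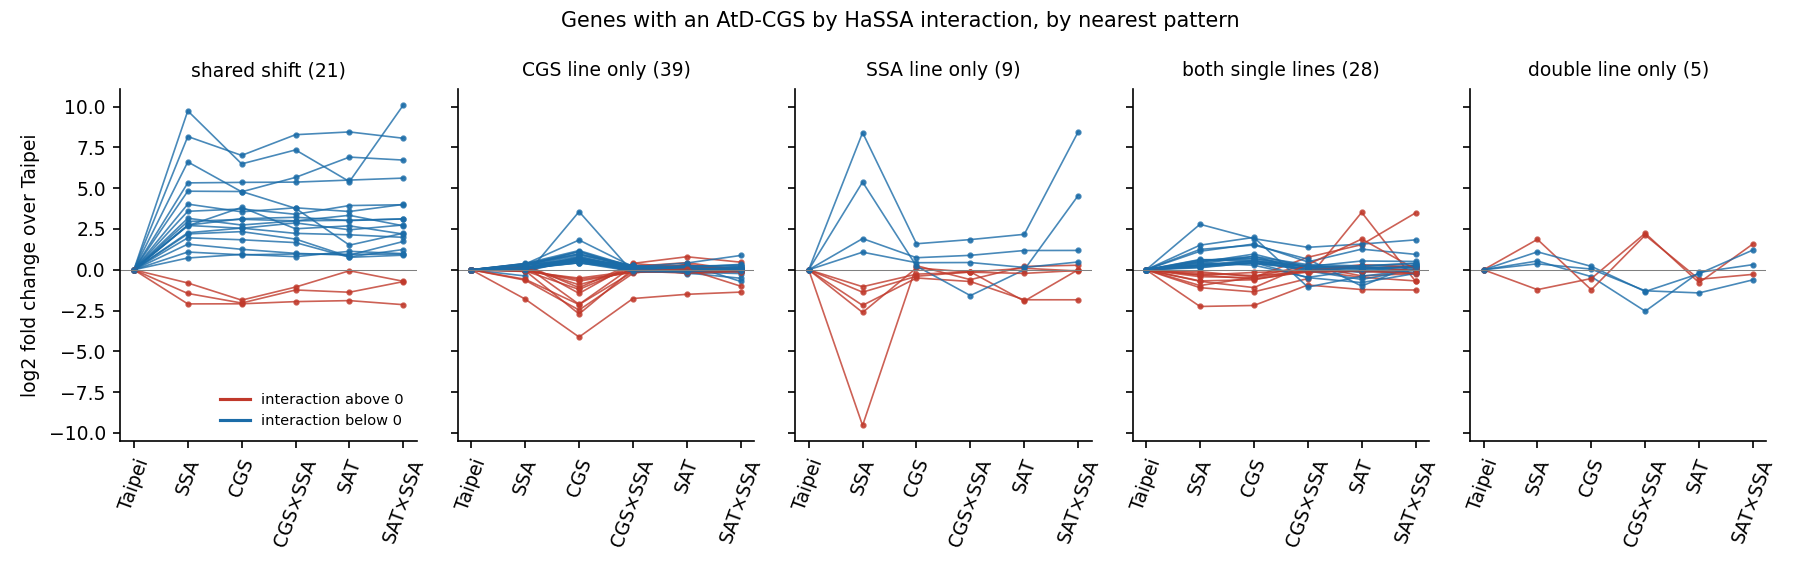
Log2 fold change over Taipei in each transgenic line for the 102 genes with an interaction, 1 line per gene, in the panel of the nearest pattern; red marks an interaction above 0 and blue one below 0. In the shared shift panel the lines stay away from 0 in all 5 transgenic lines, in the CGS panel they depart from 0 at CGS and return, and the last panel holds 5 genes.

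The 21 genes of the shared shift were higher in the transgenic lines in 18 cases and lower in 3. In 15 of the 21, SAT and SAT × SSA were also shifted from Taipei in the same direction by at least 0.5 times the interaction, and in 18 the 4 libraries of Taipei lay outside the range of all 18 other libraries. The shifts from Taipei passed the test in all 5 lines at 14 genes, where the lines differed from Taipei at 2.46% (SSA), 3.69% (CGS), 1.08% (CGS × SSA), 0.69% (SAT) and 1.22% (SAT × SSA) of all genes tested. CGS × SSA differed from CGS at 3 of the 21 and from SSA at 1, against 3.87% and 0.112% of all genes tested. Taken against the EcSAT background in place of Taipei and SSA, 2 of the 21 kept an interaction in the same direction. Most were genes of low level, with a median of 3.32 CPM in the highest line mean, and 2 had no read in Taipei. Whether the Taipei plants or the transgenic lines departed from a common level cannot be told apart.

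Os03g0299700 was the clearest of them and had the lowest p of all 102 genes. It had 1.07, 0.612, 1.03 and 1.01 CPM in Taipei, 38.7, 39.5 and 33.9 CPM in SSA, 33.9, 38.5, 40.8, 32.6 and 45.1 CPM in CGS and 43.7, 36.7, 37.0 and 37.0 CPM in CGS × SSA. SAT had 43.1, 43.5 and 39.8 CPM and SAT × SSA 54.4, 40.3 and 42.8 CPM. All 18 transgenic libraries were thus far above Taipei and overlapped each other. The interaction of -5.31 (standard error 0.191, adjusted p = 6.64e-14) stood beside a difference of 0.02 between CGS × SSA and CGS (adjusted p = 0.95) and of 0.05 between CGS × SSA and SSA (adjusted p = 0.932). The files and references used here do not name this gene, nor the other 3 given by identifier below, and these 4 were chosen after their values were seen, as clear examples of a pattern.

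The 39 genes shifted in CGS only formed the largest group, with 12 interactions above and 27 below 0 and a median size of 0.80. At each of the 39, the 5 libraries of CGS lay outside the range of Taipei, SSA and CGS × SSA together, and CGS differed both from Taipei and from CGS × SSA at adjusted p below 0.01. The genes were chosen for a shift of CGS in these libraries, so this follows in large part from the choice. Over all genes tested, 3.87% differed between CGS × SSA and CGS. In 25 of the 39 the interaction was also called in the same direction against the EcSAT background, a contrast that uses the same CGS and CGS × SSA libraries. No gene of this group differed between CGS × SSA and SSA. Os02g0668500 had 35.9, 31.9, 26.5 and 33.0 CPM in Taipei, 39.0, 38.8 and 45.0 CPM in SSA, 11.2, 11.4, 14.5, 11.5 and 9.78 CPM in CGS and 41.0, 39.9, 48.4 and 37.5 CPM in CGS × SSA. It was low in CGS alone, since SAT had 45.8 to 66.4 CPM and SAT × SSA 34.8 to 49.1 CPM. Its interaction was 1.47 (standard error 0.193, adjusted p = 0.000225). The most abundant gene of the group had 3551 to 6010 CPM in Taipei, 769 to 2081 CPM in CGS and 2304 to 5673 CPM in CGS × SSA. Of the 39 calls, 12 held whichever library was left out.

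In 28 genes both SSA and CGS were shifted the same way and CGS × SSA lay closer to Taipei, 10 with interactions above and 18 below 0. Median shifts from Taipei were 0.44 in SSA, 0.58 in CGS and 0.20 in CGS × SSA in size. CGS passed the test against Taipei at 22 of them and SSA at 8. In 2 of the 28 CGS × SSA differed from both SSA and CGS in the same direction. Of these 28 calls, 5 held whichever library was left out, and their number ran from 6 without SSA replicate 3 to 41 without CGS replicate 3.

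SSA alone was shifted at 9 genes, at each of which its 3 libraries lay outside the range of Taipei, CGS and CGS × SSA. That separation, too, follows in large part from the choice of the genes. CGS × SSA and SSA differed at 6 of the 9, and at 0.112% of all genes tested, although both carry HaSSA. Os04g0454900 had 2.63, 2.97, 2.92 and 2.46 CPM in Taipei, no read in any library of SSA, 4.46, 2.92, 3.25, 2.54 and 3.12 CPM in CGS and 1.82, 1.93, 1.61 and 1.85 CPM in CGS × SSA. CGS × SSA was below all libraries of Taipei and CGS, at 65.7% of the mean of Taipei, and SAT × SSA was at 2.73 to 3.77 CPM. Set against a floor of 3 reads over the 3 libraries of SSA, CGS × SSA was at least 65.1-fold higher than SSA and the interaction at least 5.78. That bound was not tested. The adjusted p of 2.37e-08 belongs to the fitted interaction of 8.68. Another gene of this group had 40.5 to 44.5 CPM in SSA and 40.1 to 46.9 CPM in SAT × SSA but 0.0609 to 0.819 CPM in CGS × SSA, a range that overlapped Taipei and CGS. It was thus shared by SSA and 1 of the crosses.

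**Figure D5:**
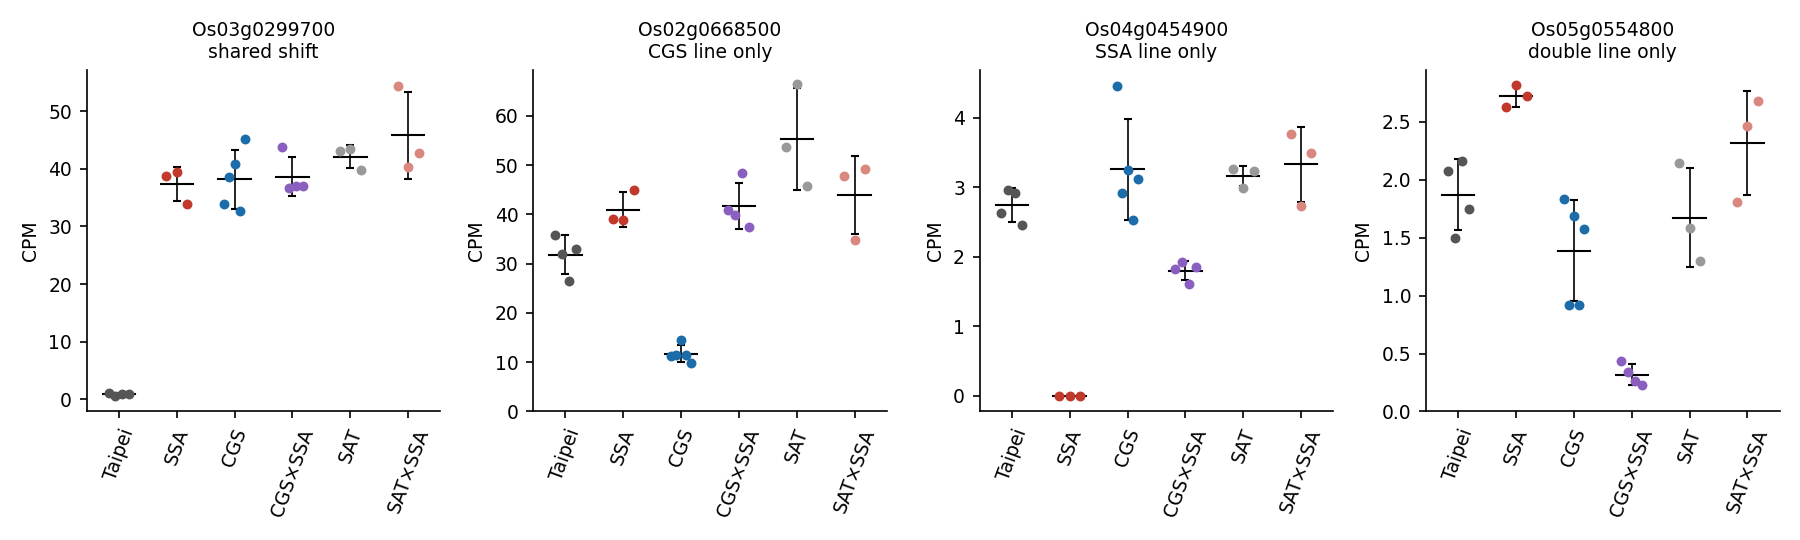
CPM of 4 called genes in each of the 22 libraries (points) with the mean and SD of each line, 1 gene for each of 4 patterns. Taipei stands alone near 1 CPM for Os03g0299700, CGS is low for Os02g0668500, SSA is at 0 for Os04g0454900, and CGS × SSA is lowest for Os05g0554800.

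A shift of CGS × SSA alone was nearest at 5 genes, 2 above and 3 below 0. At 4 of the 5, CGS × SSA lay outside the range of Taipei, SSA and CGS and differed from both parents in the same direction. Together with 2 of the genes shifted in both lines with 1 transgene, 6 of the 102 genes differed from both parents in this way. Over all genes tested, CGS × SSA differed from CGS at 3.87% and from SSA at 0.112%. The share that differed from both was not counted. All 102 were chosen on a contrast of these same libraries, so the 6 follow in part from the choice. Os05g0554800 had 2.08, 1.50, 2.16 and 1.75 CPM in Taipei, 2.62, 2.81 and 2.72 CPM in SSA, 1.83, 0.918, 1.69, 0.922 and 1.57 CPM in CGS and 0.434, 0.337, 0.262 and 0.231 CPM in CGS × SSA. All 4 CGS × SSA libraries were below every other library of the series, with 1.30 to 2.14 CPM in SAT and 1.81 to 2.68 CPM in SAT × SSA. The interaction was -2.66 (standard error 0.356, adjusted p = 0.000257), with -2.12 against CGS and -3.08 against SSA. A second gene was higher in CGS × SSA, at 1.04 to 1.95 CPM, than in Taipei, SSA and CGS, where it reached 0.487 CPM, but SAT × SSA was at 0.754 to 0.937 CPM, so that both crosses were high. At the one of the 5 that did not differ from both parents, CGS × SSA (10.7 to 13.5 CPM) overlapped SSA (9.23 to 11.0 CPM), both were above Taipei (2.43 to 3.15 CPM), and CGS was below it (0.856 to 1.87 CPM). Of the 5 calls, 3 held whichever library was left out. The highest line mean was under 2 CPM at 2 of the 5.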

How the data were processed

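RNA from milkripe seeds was depleted of ribosomal RNA and sequenced as strand-specific, single-end reads. Per the labels and methods, the authors mapped reads with STAR 2.7.1a to IRGSP-1.0 and deposited raw read counts per gene, unstranded and for each strand. The column of reads on the opposite strand was analysed here, after the 4 rows of unassigned reads were dropped. Reads in no feature were 11.8% to 20.3% of each library.

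One edgeR 4.0.16 quasi-likelihood model (robust, TMM scaling, filterByExpr) was fitted in R to all 22 libraries with line as the only factor, and p-values were adjusted by Benjamini-Hochberg over all 26821 genes, with a threshold of 0.01. CPM use TMM-scaled totals. Each library came from 1 plant. No replicates agreed within counting noise. The closest pair was CGS replicates 2 and 4, with a chi-square per gene of 4.62, against 10.0 to 54.9 for the other pairs within lines. Whether these CGS libraries are less independent than the others was not tested. The fit was tested on simulated counts.

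The members and lists were chosen with earlier results of these data known. All genes the study lists were eligible for naming, as were the called genes with the largest values and the lowest p-values. Since no reference paired the identifiers with names, only 4 of the latter are printed. Of 38866 identifiers, 1 was found in the RefSeq gene table. Alternatives were DESeq2 1.42.0, RLE or total-count scaling, other filters, unstranded counts, fewer libraries, a replicate block and another threshold. Overlapping or near-identical genes may share reads.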

Additional observations from a re-analysis of the deposited data

Results flagged for a closer look

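Dixon's test of a single far value was run on 102 groups of 4 or 5 libraries, and 7 were past the 95% critical value, where chance gives about 1 in 20, or 5.1. Of these, 4 were CGS × SSA replicate 1 at genes that rise with HaSSA, each time low: BiP4 at 100 CPM, CNX at 792 CPM, SULTR4;1 at 33.3 CPM and HMT3 at 1.79 CPM. The same library was high at Os03g0299700, with 43.7 CPM. In Taipei, replicate 1 was high at SULTR4;1 with 30.7 CPM and replicate 2 low at Os03g0299700 with 0.612 CPM.

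The HaSSA effect differed between backgrounds by the test of the interaction itself at Os03g0299700 (log2 -5.31), Os05g0554800 (-2.66), Os04g0454900 (8.68, a fitted value against libraries with no read, and no bound) and Os02g0668500 (1.47). Between the AtD-CGS and EcSAT backgrounds it differed at LSU2, by 3.72 on the log2 scale.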

How the results depend on the processing

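Calls of the interaction were 32 higher and 70 lower in the main fit. They were 122 and 186 with DESeq2, 20 and 80 under total-count scaling and 17 and 31 with a replicate block. They were 121 and 242 at adjusted p below 0.05, and 23 and 44 for genes above a mean of 100 normalized counts. Without 1 library they ran from 13 to 48 and from 33 to 74. The HaSSA effect with AtD-CGS minus that with EcSAT, a different contrast without SSA and Taipei, gave 208 and 116. That contrast also holds any effect of EcSAT on the HaSSA response. The shared shift was nearest for 49, 53 and 8 genes with DESeq2, at 0.05 and above 100 counts, and for 18 to 27 without 1 library. A shift of CGS × SSA alone was nearest for 10, 3, 2, 2 and 9 genes with DESeq2, total counts, above 100 counts, the replicate block and 0.05, and for 3 to 4 without 1 library. The median interaction of the 427 higher genes was -0.17 under total-count scaling and -0.14 to -0.03 without 1 library, and that of the 713 lower genes 0.16 to 0.32. These 2 medians could not be computed from 16 libraries alone.

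Of 822 values of named genes under an alternative, 807 kept direction and side of the threshold and 14 turned in sign, none of them called. APRL1 was -0.081 under total-count scaling, -0.10 with the replicate block and -0.30 to 0.22 without 1 library. Without 1 library, ATPS ran from -0.28 to 0.10, CNX from -0.098 to 0.0083, LSU2 from -0.41 to 0.17 and SHM4 from -0.34 to 0.0054. SULTR1;3 passed at 0.05. Among the 16 libraries of the contrast, same-numbered libraries did not deviate together (1 of 21 correlations over 0.1, mean -0.04). Same-numbered pairs that include an EcSAT line ran from -0.46 to 0.31. Those of SSA with SAT × SSA were 0.10, 0.11 and 0.17. The numbers were not used as pairs in the main fit. List medians without SSA replicate 3 or CGS × SSA replicate 1 were added after seeing the data. The causes were not tested. Genes under about 2 CPM, 16 of the 102 called, rest on few reads.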

Other observations

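The 4 regulators of the unfolded protein response summed to 180 to 197 CPM in Taipei, 217 to 237 CPM in SSA, 172 to 216 CPM in CGS and 221 to 242 CPM in CGS × SSA. SSA and CGS × SSA were above Taipei and CGS, with SSA barely above the highest library of CGS, while SAT × SSA, at 205 to 212 CPM, overlapped CGS. The median interaction was -0.09 with 0 calls. The 6 genes of methionine and S-adenosylmethionine synthesis summed to 4636 to 5999 CPM in Taipei and 5481 to 7064 CPM in CGS, which overlapped, with a median interaction of -0.17 and 0 calls. Both lists were likewise written from general knowledge of rice, with no annotation to check them.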
